A study of Homo sapiens with 2 samples.

Results

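The mRNAs of LRPPRC and of 9 partners or factors of mitochondrial RNA handling were described in RNA that co-precipitated with LRPPRC. The 10 genes, LRPPRC, SLIRP, MTPAP, PNPT1, SUPV3L1, POLRMT, TFAM, DHX30, GRSF1 and FASTKD2, were chosen by name from 16770 distinct gene names, for the function of their proteins, by a rule that uses no measured value but was set with earlier results of these data known. Each had 1 row in the data and a value above 0 in both libraries, so that no member was lost to a filter. The samples were 2 RNA immunoprecipitation (RIP) libraries of 1 group, made from lysates of A549, a human lung adenocarcinoma cell line, of wild-type genotype and without any treatment named in the labels, with 2 μg of anti-LRPPRC antibody. The replicates are biological by the paper and technical by the series description, and the SDs given here may therefore hold technical spread alone.

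LRPPRC is a pentatricopeptide repeat (PPR) protein that binds mRNAs made from mitochondrial DNA, together with SLIRP, a small protein with an RNA recognition motif, and the complex keeps these mRNAs stable and supports their polyadenylation. Mitochondrial RNA is transcribed by POLRMT with TFAM, which also packs the mitochondrial genome, is given its poly(A) tails by MTPAP and is degraded by the phosphorylase PNPT1 with the helicase SUPV3L1. GRSF1, DHX30 and FASTKD2 belong to the RNA granules of the mitochondrial matrix, where transcripts are processed and mitochondrial ribosomes are assembled. All of these proteins are encoded in the nucleus and made in the cytosol, so what was measured for them here is a cytosolic or nuclear mRNA in the precipitate, not the protein.

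Values are FPKM, fragments divided by transcript length and by how many fragments a library had mapped. FPKM is a level per length and is used here to set genes side by side. It is the level in the precipitate only. Neither input nor IgG libraries were analysed here, and no enrichment over the lysate can be given. With 1 group there is no comparison between conditions, and no test was made. In a bulk lysate, fewer cells with a transcript and less of it per cell cannot be told apart. Of 5 epithelial markers KRT8 (337 ± 3.11 FPKM, SD, n = 2), KRT18 and KRT7 had means above FPKM 30, and EPCAM and CDH1 were at 0.430 and 1.33. KRT7 lay at that level, with 31.5 FPKM in replicate 1 and 29.6 in replicate 2. Of 9 markers of leukocytes, fibroblasts and endothelium, 7 had a value, from 0.0121 to 1.36 FPKM, and PTPRC and CD3E have no row here.

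Because LRPPRC is both the precipitated protein and a member, 1 guide, 1 shRNA and 1 primer pair of the study are given first. With these the study cut the gene, silenced the transcript and measured it, and their places in the gene and its mRNA are shown. The oligonucleotides shown may not be all that the study used. They come from the study's own table of designed sequences, all are written 5′ to 3′, and the capitals mark the PAM that follows the guide in the genome.
LRPPRC guide: ggcacgcagcaaccaacgcgCGG
LRPPRC shRNA: cctcaaaggaatgcaagaatt
LRPPRC forward primer: tgcaattgctgaacaaacccc
LRPPRC reverse primer: ggacaggctctccagcatac
Each matched the LRPPRC gene once. The gene lies on the minus strand of chromosome 2 of GRCh38 from 43886224 to 43996226 and has 38 exons in its canonical mRNA of 6603 bases. The guide, which directs Cas9 to the genomic DNA, lies in the coding part of exon 1, opposite bases 65 to 84 of the mRNA, from 43995906 to 43995925. The shRNA lies in exon 12, at bases 1425 to 1445. The primers lie in exons 35 and 37 and span 278 bases of the mRNA, all of it coding. None of these oligonucleotides is named in the preparation of the 2 libraries.

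LRPPRC mRNA was by far the highest of the 10. Replicate 1 gave 184 FPKM and replicate 2 gave 176 FPKM, with a mean of 180 ± 5.51 (SD, n = 2), and 106 of the 16770 names had a higher mean. Both libraries were far above every value of the other 9 genes. The ratio of LRPPRC to the median of the other 9 was 21.9 in replicate 1 and 25.5 in replicate 2, a mean of 23.7 ± 2.51 (SD, n = 2). Its share of the FPKM of all 10 genes added together was 70.9% in replicate 1 and 70.3% in replicate 2. Among the genes nearest to it by the distance of log2(FPKM + 1) over the 2 libraries were C1QBP (distance 0.05, mean 178 FPKM) and ACTN1 (0.05, 177 FPKM). With 2 libraries of 1 group, this measure compares levels and not patterns.

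**Figure D1:**
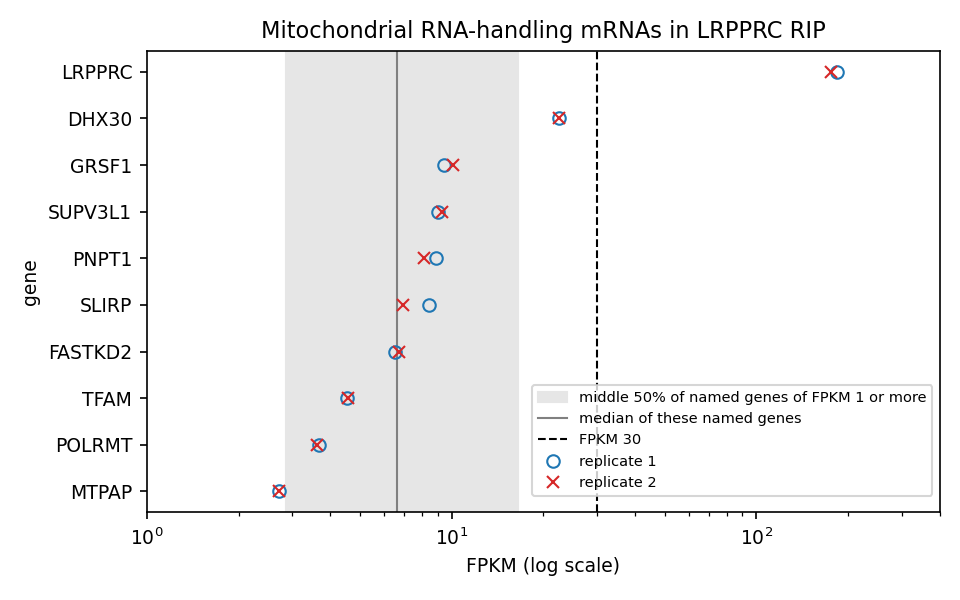
Level of each of the 10 genes (y axis, ordered by mean) as FPKM on a logarithmic x axis in LRPPRC RIP replicate 1 (circles) and replicate 2 (crosses). The gray band and line are the middle 50% and the median of named genes averaging FPKM 1 or more, and the dashed line is FPKM 30: LRPPRC, at 184 and 176, lies alone beyond it.

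SLIRP, the protein partner of LRPPRC, did not share this level. Its mRNA was at 8.41 FPKM in replicate 1 and at 6.93 FPKM in replicate 2, with a mean of 7.67 ± 1.05 (SD, n = 2). Both values were close to 6.60 FPKM, the median of the 10631 named genes that averaged FPKM 1 or more. The LRPPRC mRNA was 21.9 times the SLIRP mRNA in replicate 1 and 25.5 times in replicate 2. SLIRP has the shortest mRNA of the set, of 376 bases with 4 exons on chromosome 14. With FPKM multiplied by length, which approximates the share of fragments, the ratio was 413. Whether the FPKM of so short an mRNA can be compared with that of longer ones was not tested.

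MTPAP, the poly(A) polymerase of mitochondria, was the lowest of the 10, at 2.71 FPKM in both libraries (mean 2.71 ± 0.00311, SD, n = 2). The LRPPRC mRNA was at 66.6 ± 1.96 times this level (SD, n = 2). An annotated lncRNA gene on the opposite strand spans 40% of the exonic bases of MTPAP, and although the library kit keeps the strand, the sources used here do not give whether the counting used it. Whether reads of that gene are part of the MTPAP value was not tested.

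TFAM and POLRMT, which act in mitochondrial transcription, were below the middle of the named genes averaging FPKM 1 or more. TFAM, at 4.54 and 4.57 FPKM in replicates 1 and 2, was above POLRMT, the single-subunit RNA polymerase, at 3.67 and 3.60. The ratio of TFAM to POLRMT was 1.25 ± 0.0208 (SD, n = 2), and their ranges did not overlap. Both were under that median of 6.60 and above 2.48, the median of all 16770 names.

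The enzymes of decay had near-equal levels. SUPV3L1, the helicase, was at 8.998 FPKM in replicate 1 and 9.27 in replicate 2. PNPT1, the polynucleotide phosphorylase that works with it, had 8.89 and 8.10. SUPV3L1 was above PNPT1 by 1.01 times in replicate 1 and by 1.14 times in replicate 2. The ranges did not overlap, and the mean ratio was 1.08 ± 0.0931 (SD, n = 2). An SD of 2 libraries cannot show whether the levels are equal.

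Of the granule proteins, DHX30, an RNA helicase, was the second highest of the 10, with 22.5 FPKM in both libraries (mean 22.5 ± 0.00888, SD, n = 2). GRSF1, which binds G-rich RNA and is also a cofactor of the degrading enzymes, was at 9.42 and 10.1 FPKM in replicates 1 and 2. FASTKD2, a FAST kinase domain protein needed for the large mitochondrial ribosomal RNA, had 6.54 and 6.71. The order DHX30, GRSF1, FASTKD2 was the same in both libraries, and DHX30 was 2.30 ± 0.118 times GRSF1 and 3.39 ± 0.0587 times FASTKD2 (SD, n = 2 each). LRPPRC was still 8.03 ± 0.249 times DHX30 (SD, n = 2).

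From the highest mean, the order was LRPPRC, DHX30, GRSF1, SUPV3L1, PNPT1, SLIRP, FASTKD2, TFAM, POLRMT and MTPAP, and it was the same in each library alone. Of the 9 pairs of neighbours, 8 had ranges that did not overlap, and PNPT1 and SLIRP overlapped. From GRSF1 to SLIRP, neighbours differed by 1.07 to 1.11 times only. The order changed when length was put back. With FPKM multiplied by the length in kb, LRPPRC, DHX30 and GRSF1 kept ranks 1, 2 and 3, whereas FASTKD2 came to rank 4, SUPV3L1 to 7 and SLIRP to 10.

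As a group the 10 lay above the middle of all named genes and nearer to that of the genes averaging FPKM 1 or more. Their median was 8.08 FPKM, against 2.48 over all 16770 and 6.60 over the 10631. Only LRPPRC was above FPKM 30, the threshold the study used for bound RNAs, which is 1 of 10, against 8.46% of all 16770 named genes and 13.3% of the 10631. Above FPKM 20 were 2 of the 10, LRPPRC and DHX30, against 13.1% of all named genes and 20.7% of the 10631. None of the 10 averaged below FPKM 1, against 36.6% of all named genes. A mean of at least FPKM 5 was reached by 7 of the 10, against 37% of all named genes and 58.3% of the 10631. LRPPRC and DHX30 were above the upper quartile of these genes, at 16.6 FPKM, and TFAM, POLRMT and MTPAP were below their median. Together the 10 held 0.132% of the FPKM total of replicate 1 and 0.129% of that of replicate 2.

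The libraries differed little for these genes. The median absolute difference of log2(FPKM + 1) between them was 0.03 over the 10 genes, against 0.06 over the 10631 and 0.06 over the 6174 that lie in the FPKM range of the 9 genes other than LRPPRC. Of the 10, 5 were higher in replicate 1 and 5 in replicate 2, and of the 10631, 56.1% were higher in replicate 1. SLIRP differed most, by 0.25 on the log2 scale, and 93.8% of the 10631 genes differed by less. PNPT1 differed by 0.12 and GRSF1 by -0.10.

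**Figure D2:**
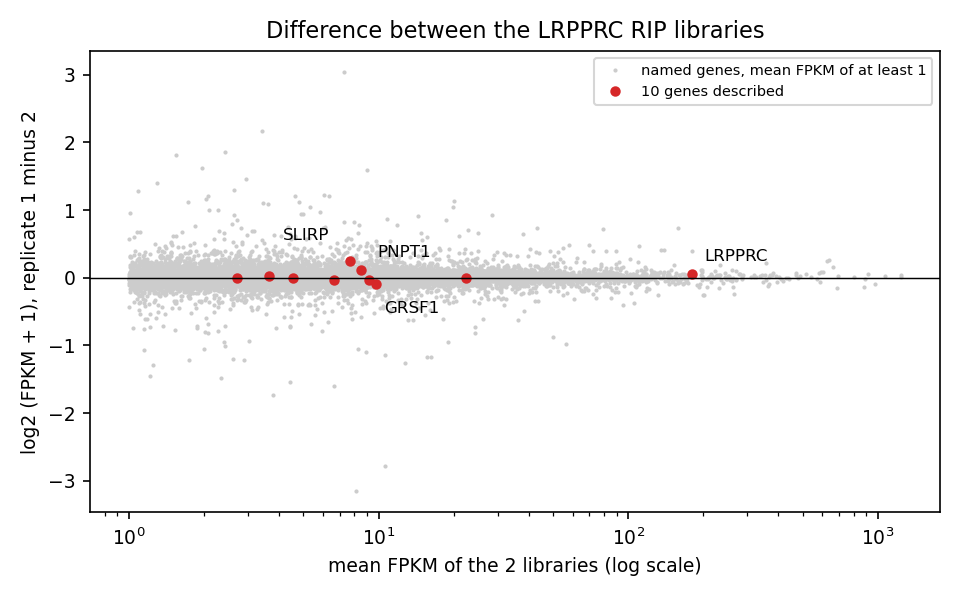
Mean FPKM of the 2 LRPPRC RIP libraries on a log scale (x axis) and the difference of log2(FPKM + 1), replicate 1 minus replicate 2 (y axis). Gray points are named genes averaging FPKM 1 or more and red points are the 10 genes, which lie between -0.10 (GRSF1) and 0.25 (SLIRP).

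The mRNAs differ in length and layout. Their canonical forms in GENCODE 44, an annotation of GRCh38 later than the authors', run from 376 bases (SLIRP) to 6712 bases (FASTKD2), with 4 to 38 exons and a GC content from 36.0% (TFAM) to 66.1% (POLRMT). In MTPAP, TFAM, GRSF1 and FASTKD2 the 3′ UTR takes 65.4% to 82.6% of the mRNA, and these 4 had 2.71 to 9.78 FPKM. In SUPV3L1, POLRMT and DHX30 it takes 1.49% to 2.46%, and these 3 had 3.64 to 22.5 FPKM, so the levels of both kinds overlap. LRPPRC lies between them, with a coding sequence of 4182 bases, the longest of the 10, and a 3′ UTR of 2379 bases. Over the 10 genes Spearman's rho of length and FPKM was 0.07, and -0.15 without LRPPRC, as a description over genes measured in the same libraries. LRPPRC, PNPT1 and FASTKD2 lie on chromosome 2, MTPAP, SUPV3L1 and TFAM on chromosome 10, and the other 4 on chromosomes 3 (DHX30), 4 (GRSF1), 14 (SLIRP) and 19 (POLRMT).

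**Figure D3:**
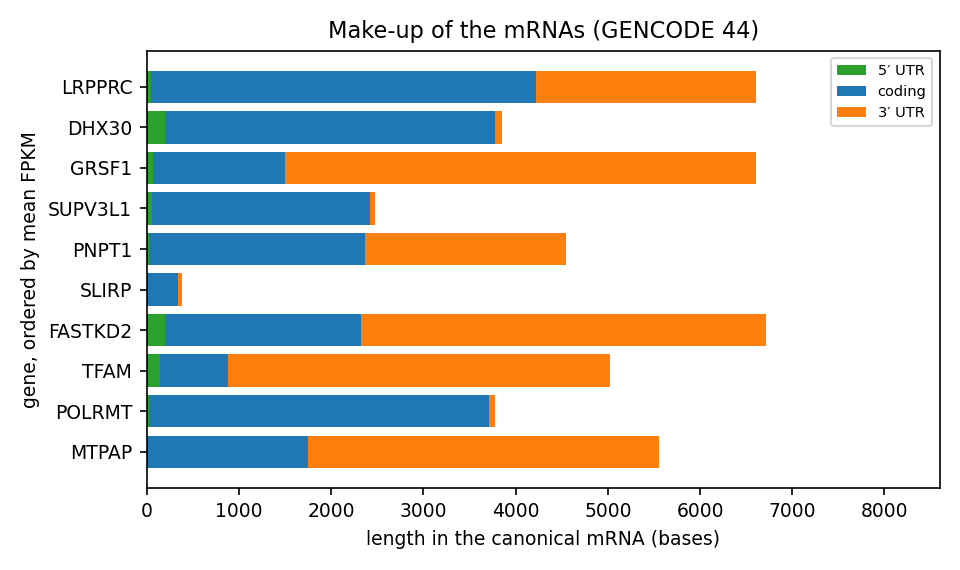
Length in bases (x axis) of the 5′ UTR, the coding sequence and the 3′ UTR in the canonical mRNA of each of the 10 genes (y axis, ordered by mean FPKM). SLIRP, at 376 bases, is the shortest, and the bars show no run of length from the top to the bottom of the order.

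Some values may be shared with copies of the genes. Copies of at least 50% of the coding sequence were found elsewhere in GRCh38 for 4 of the 10, SLIRP, PNPT1, POLRMT and TFAM, all at annotated processed pseudogenes, and 2 of these genes had a copy of at least 90% identity. The copy of POLRMT on chromosome 17, from 62136972 to 62140639, covers 99.3% of the coding sequence at 97.8% identity, and 6.21% of all stretches of 100 coding bases occur in it without a mismatch. The copy of PNPT1 on chromosome 3, from 3981984 to 3984291, covers 98.3% at 93.5% identity, and no stretch of 100 coding bases is shared. It lies within the span of SUMF1, another gene. The first difference in each that has 14 equal bases on either side is shown in capitals, to show how close the copies are.
POLRMT coding sequence, bases 66 to 94: cccgggactccccgGcaaagaagggaccg
POLRMT copy, chr17:62140570-62140598, minus strand: cccgggactccccgCcaaagaagggaccg
PNPT1 coding sequence, bases 163 to 191: aaattagaaatatcTtctggaaagctggc
PNPT1 copy, chr3:3984135-3984163, minus strand: aaattagaaatatcCtctggaaagctggc
Counted from the first base of the coding sequence, these are G80C in POLRMT and T177C in PNPT1, with the base of the mRNA first. Neither pseudogene has a row under its own name here, and whether a row added by assembly covers either was not tested. The sources used here do not give how reads with several places were counted. The values of POLRMT and PNPT1 are uncertain to that extent, and so are those of SLIRP and TFAM. Of the stretches of 50 coding bases, 30.4% of POLRMT and 2.57% of PNPT1 occur without a mismatch in these copies. For SLIRP the share was 5.76% in its copy on chromosome X, and for TFAM 1.45% in its copy on chromosome 7. Neither SLIRP nor TFAM shares a stretch of 100 coding bases. LRPPRC, MTPAP, SUPV3L1, DHX30, GRSF1 and FASTKD2 had no such copy of the coding sequence. The UTRs were not searched, and in MTPAP, TFAM, GRSF1 and FASTKD2 the 3′ UTR takes 65.4% to 82.6% of the mRNA. Reads from these parts may also be shared with copies, which was not tested.

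Around these 10 genes, 9 lists of nuclear genes for mitochondrial gene expression were examined, with 87 distinct genes, all of which had a value, 6 of them under an older name. LRPPRC was the highest of the 87. Of the 77 that are not among the 10, 3 were above FPKM 30, 37 had at least FPKM 5 and 3 were below FPKM 1, with a median of 4.85 FPKM against 8.08 for the 10. Of all 16770 named genes, 8.46% were above FPKM 30, 37% had at least FPKM 5 and 36.6% were below FPKM 1. These shares also stand beside the counts of each list that follows. Next after LRPPRC was ELAC2, the enzyme that cuts the 3′ ends of tRNAs in the nucleus and in mitochondria, at 107 and 102 FPKM in replicates 1 and 2.

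In transcription and the nucleoid, none of 12 genes was above FPKM 30, 6 had at least FPKM 5 and the median was 5.32. TEFM, the elongation factor, was at 26.5 and 22.2 FPKM in replicates 1 and 2, and SSBP1, the single-stranded DNA-binding protein, at 21.3 and 18.4. Both were above TFAM and POLRMT in each library. The lowest were MTERF2, at 0.829 FPKM, and MTERF1, at 1.61.

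Of 9 genes of RNA cleavage and RNA ends, LRPPRC and ELAC2 were above FPKM 30 and 5 had at least FPKM 5. MTPAP and HSD17B10, a subunit of mitochondrial RNase P, were the lowest, at 2.71 and 2.63 FPKM. Of 7 genes of decay none was above FPKM 30, and the median was 8.49. REXO2, which degrades short RNA fragments, was the highest at 11.6 ± 0.242 FPKM (SD, n = 2), followed by GRSF1, and LACTB2 and ENDOG were the lowest at 3.86 and 0.424. SUPV3L1 and PNPT1 thus stood near the middle of their list.

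By protein family, LRPPRC stood apart and FASTKD2 did not. Of 7 PPR proteins, LRPPRC alone was above FPKM 30. The next was MRPS27, a protein of the small mitochondrial ribosomal subunit, at 16.8 ± 0.104 FPKM (SD, n = 2), and POLRMT and PTCD2 were the lowest, at 3.64 and 2.15. In the FASTK family of 6, FASTK had 18.5 ± 0.496 and FASTKD3 13.2 ± 0.603 FPKM (SD, n = 2 each), and FASTKD2 was second from the bottom, above TBRG4 at 4.58. Of 10 granule genes none was above FPKM 30. DHX30 was the highest, followed by WBSCR16 (now RCC1L) at 16.3 ± 1.83 FPKM (SD, n = 2), and NGRN and DDX28 were the lowest, at 1.84 and 1.70. The libraries differed for NGRN, at 2.57 FPKM in replicate 1 against 1.11 in replicate 2.

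Genes of RNA modification were the lowest of the 9 lists, with a median of 2.52 FPKM over 24 genes, of which 6 had at least FPKM 5 and none was above 30. They ran from MRM1, at 1.16, and QTRT1, at 1.36, to FTSJ2 (now MRM2), at 13.4, and NSUN2, at 14.02. Of 14 translation factors, 10 had at least FPKM 5, and OXA1L, which inserts proteins into the inner membrane, and GUF1 were above FPKM 30, at 34.9 ± 0.789 and 30.8 ± 0.537 (SD, n = 2 each). MTIF3 and MTRF1 were the lowest, at 1.24 and 0.560. Of 10 genes of mitochondrial DNA replication none was above FPKM 30. TOP3A and SSBP1 were the highest, at 20.9 and 19.8, and PRIMPOL and POLG2 the lowest, at 2.70 and 1.07.

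Set against 8.08 FPKM, the median of the 10 genes, the transcripts on which the proteins act were higher, the lowest at 12.7 FPKM. Of 11 mitochondrially encoded mRNAs with a value, 10 were above DHX30 and none was below GRSF1, with a median of 65.4 FPKM. Only 2 of the 11, MT-CO3 and MT-CO1, at 661 and 606 FPKM, were above LRPPRC. Of all 16770 named genes, 1950 were above DHX30, 4077 above GRSF1 and 106 above LRPPRC. LRPPRC was at 0.491 times GAPDH, which had 367 ± 16.7 FPKM, and at 0.370 times ACTB, which had 487 ± 4.66 FPKM (SD, n = 2 each).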

How the data were processed

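RNA from 2 anti-LRPPRC RIP libraries of A549 cells, made with a strand-keeping total RNA kit, was sequenced. Adapters were trimmed by the authors (cutadapt 1.18), reads were aligned to GRCh38 (HISAT2 2.1.0), sorted (SAMtools) and quantified (StringTie 1.3.3b), as the submitters' processing notes and the paper's methods give it. They deposited FPKM per gene and library, unpooled. The paper names Ensembl release 101, whereas some symbols in the data are older. Of 21262 rows, 16802 carry a name and 4460 were added by assembly. Summed FPKM was 196627 in replicate 1 and 194839 in replicate 2.

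The depth is unknown, since low values showed no steps of whole reads. Of 5405 genes with a mean under 0.3 FPKM, at most 76 (1.41%) shared a log2 ratio within 0.02. No intervals or detection limits were therefore computed. Means and SDs over 2 libraries, ratios, ranks and counts above FPKM 30 were computed. Where a name had several rows, the highest stood for it. Differences between libraries were taken on log2(FPKM + 1), a scale that understates the change of low genes, with a filter at a mean of FPKM 1 for the background of named genes. Functions were tested on simulated data. The members and lists were chosen with earlier results of these data known. The genes named are the 10 members, the 2 highest and 2 lowest of each list, the 3 nearest to LRPPRC, GAPDH, ACTB and marker genes. One gene that this rule names is not reported here. MT-CO1 and MT-CO3 were added after their values were seen. Transcript lengths came from GENCODE 44, and copies of coding sequences of at least 50% of the length were searched with blastn 2.17.0 (megablast). Alternatives were other thresholds, single libraries, other pseudocounts, TPM scaling, a background from FPKM 0.1, summed rows of a name and multiplication by length. Scripts ran under Python 3.11.15 with matplotlib 3.10.9, pandas 2.3.3, scipy 1.17.1 and numpy 2.4.6.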

Additional observations from a re-analysis of the deposited data

How the results depend on the processing

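With 2 libraries, a mean without either one always stays within 1 SD, each of the 10 genes has 1 row so that summing rows changes nothing, and a ratio within a library is the same in TPM, so these alternatives say nothing about stability. Leaving out a library gave 1 gene above FPKM 30 with either library, a median of the 10 genes from 7.51 to 8.65 FPKM, a ratio of LRPPRC to the median of the other 9 from 21.9 to 25.5, and no change of rank for any of the 10. At FPKM 20, 2 genes (LRPPRC and DHX30) were above the threshold, because the threshold itself is lower. As TPM, another unit, the median of the 10 was 41.3. With FPKM multiplied by the length in kb the median was 30.8 and the ratio of LRPPRC to the median of the other 9 was 52.0, because the division by length was removed, and 5 of the 10 changed rank, among them TFAM, which came to 6, and MTPAP, which came to 8. Against a background from FPKM 0.1 the median percentile of the 10 was 65.8, in place of 55.9, since more low genes are in it. Pseudocounts of 0.1 and 0.01 gave a median absolute log2 difference between the libraries of 0.04 for the 10 genes. No paired analysis was possible because both libraries belong to 1 group. Without a known depth, the precision of a low value such as that of MTPAP rests on the difference between 2 libraries that may be technical replicates.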
